A study of Mus musculus with 12 samples.

Results

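The nuclear genes of the mitochondrial respiratory chain and ATP synthase were examined in bone marrow-derived macrophages. Members were all genes of the count table whose symbol begins with Nduf followed by a, b, c, s or v, with Cox followed by a number from 4 to 8, with Uqcr, with Atp5, or with Sdh followed by a, b, c or d, apart from symbols that contain "-ps". This gave 102 of 55573 genes. By complex they were 47 genes of complex I, 8 of complex II, 8 of complex III, 21 of complex IV and 18 of complex V. Ndufa4 and Ndufa4l2 carry complex I names but were counted with complex IV, where the NDUFA4 protein is known to sit. Assembly factors, which help to build a complex but are not part of it, made up 12 of the 102, and structural subunits with their tissue isoforms 85. The other 5 were 4 gene copies and a second entry of Atp5o.

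The study asked what the Polycomb gene Bmi1 does in macrophages (MΦs) that have been grown with myeloma cells (MM-MΦs). MΦs and MM-MΦs of wt and of BMI1-KO mice made 4 groups of 3 RNA-seq libraries. The wt mice were BMI1fl/fl and the BMI1-KO mice BMI1fl/fl Mx1-Cre, on a C57BL/6 background. Both genotypes were given poly I:C at 6 to 8 weeks of age, in 5 doses of 15 mg/kg, and marrow was collected 4 weeks later. Mx1-Cre is switched on by interferon in many cell types, so deletion was not limited to macrophages. Marrow cells grew for 7 days in M-CSF at 5 ng/mL, MM-MΦs were then kept for 48 h with 5TGM1 mouse myeloma cells, and CD11b+ F4/80+ cells were sorted. The wt groups lack Mx1-Cre, so the Cre allele and the loss of Bmi1 cannot be told apart. Nothing states that the 3 libraries of a group came from separate mice, so the p-values reflect spread among these samples and nothing wider.

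The respiratory chain passes electrons from NADH (complex I) and succinate (complex II) by way of ubiquinone, complex III and cytochrome c to oxygen at complex IV. Complexes I, III and IV pump protons, and complex V, the ATP synthase, uses the proton gradient to make ATP. Resting and alternatively activated macrophages are known to rely on this pathway, while inflammatory activation shifts them towards glycolysis, and loss of Bmi1 has been linked to impaired mitochondrial function in other mouse cells.

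The 12 libraries held 9662279 to 11142768 counts, of which the 102 genes took 0.217 to 0.354%. In bulk RNA a lower level from fewer cells and one from less RNA per cell cannot be told apart. Bmi1 ranged over 251 to 364 counts in wt and was listed at 0 throughout BMI1-KO. Library totals implied by the authors' FPKM values were 511 to 735 counts above the table's sums for BMI1-KO and −2 to 1 away from them for wt, so these zeros may not have been measured and check no label. All 8 macrophage markers were detected, summing to 12437 to 19078 CPM, the counts scaled to library size, in a library. The 10 plasma and myeloma cell markers, all detected, summed to 196 to 607 CPM in MΦs and 395 to 879 CPM in MM-MΦs of wt mice, and to 148 to 429 and 367 to 605 CPM in those of BMI1-KO mice. Their part in the results was not tested. Markers of B cells, erythroid cells, mast cells and dendritic cells stayed at or below 1.61 CPM in sum, with Mcpt8, Ms4a2 and Siglech at 0. T cell markers summed to 6.62 to 22.95 CPM, with Cd3e and Cd8a at 0, neutrophil markers to at most 9.21 CPM in wt and at most 49.72 CPM in BMI1-KO, stromal markers to 11.53 to 52.62 CPM and endothelial markers to 12.55 to 76.85 CPM. The part of neutrophils in the genotype results was not tested. Some libraries stood apart in 17 proliferation genes. Averaged over these genes, the log2 difference from the mean of the 12 libraries was 2.03 in both wt libraries numbered 3. It was −2.14 and −1.73 in the BMI1-KO MΦ and MM-MΦ libraries numbered 1. In each comparison the median over members is also given with some of these libraries left out.

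Levels of different genes were compared by the authors' FPKM, which divides counts by the summed exon size of a gene and by library size. That size can lie well above the longest transcript, as in Ndufab1 (6883 against 3479 bases), or near it, as in Cox8a (619 against 550). The order of genes and complexes by FPKM depends on it. The plot of FPKM by complex shows that most structural subunits spanned about the same range in the 4 groups. The median over structural subunits, each taken as its mean over the 12 libraries, was 9.70 FPKM in complex I (36 subunits), 29.9 in complex II (4), 19.4 in complex III (8), 27.2 in complex IV (12, without tissue-specific isoforms) and 9.14 in complex V (17). Assembly factors had a median of 1.84 FPKM and none exceeded 4.69 (Sdhaf2).

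**Figure D1:**
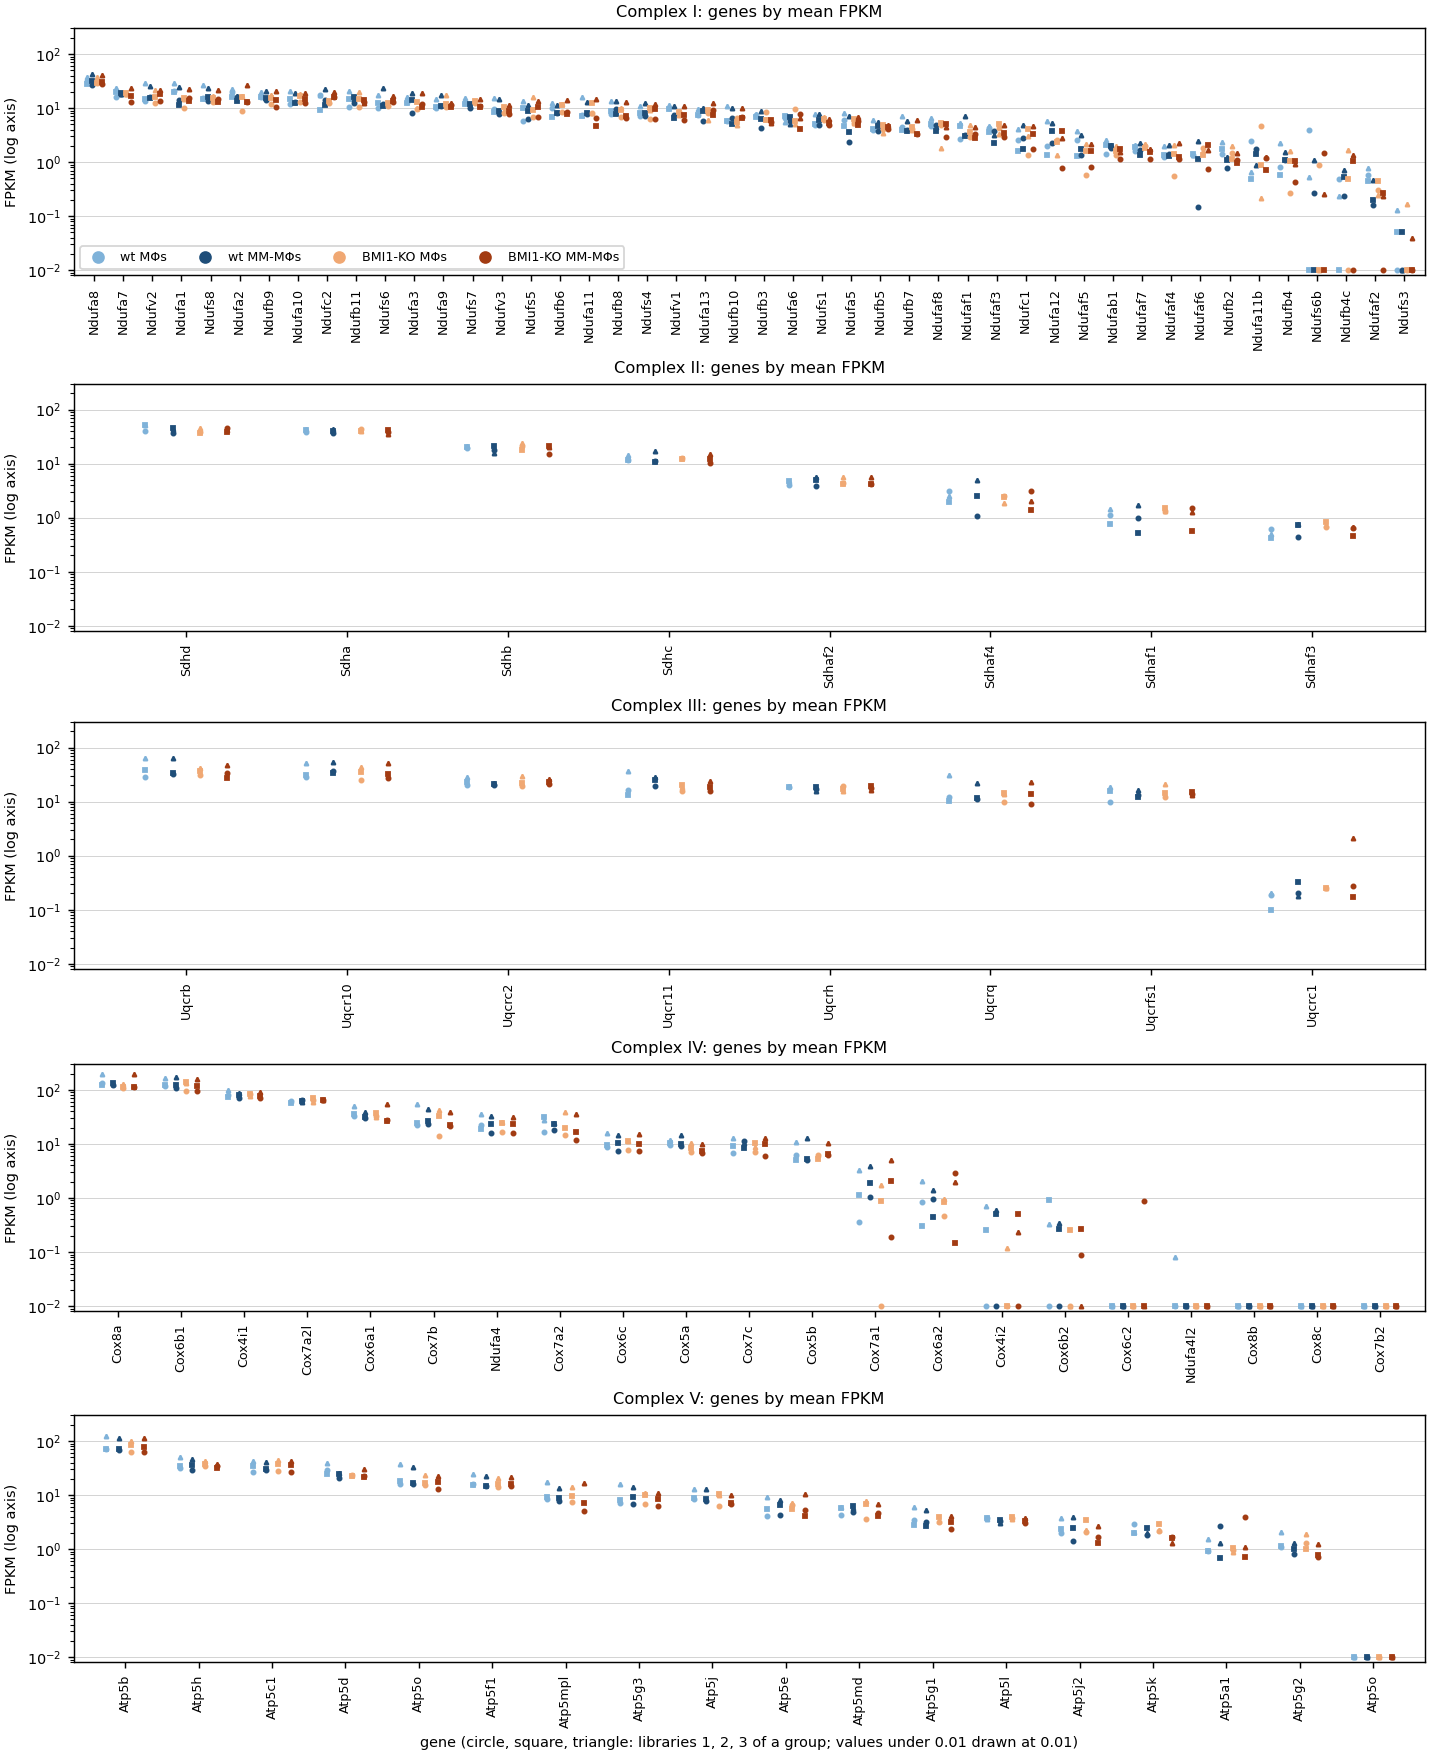
FPKM of the genes named on the x axis in each library (y axis, log scale), ordered within each complex by mean FPKM, with colours for the 4 groups and circles, squares and triangles for libraries 1, 2 and 3, and values under 0.01 drawn at 0.01. The supernumerary subunits Cox8a and Cox6b1 lie highest at means of 134 and 129, while the core subunits Ndufs3, Uqcrc1 and Atp5a1 lie at 0.037, 0.374 and 1.39.

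In complex I, the NADH dehydrogenase, the highest mean was that of Ndufa8, a supernumerary subunit. Ndufa8 stood at 32.4 ± 4.99 FPKM (SD, n = 3) in MΦs and 33.7 ± 7.88 in MM-MΦs of wt mice, and at 31.8 ± 5.39 and 33.3 ± 6.66 in those of BMI1-KO mice. The group means differed by less than the largest of these SDs.

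Complex II, succinate dehydrogenase, has 4 subunits, all encoded in the nucleus, and also works in the tricarboxylic acid cycle. Sdhd, a membrane anchor, ranged over 36.83 to 51.29 FPKM in the 12 libraries and Sdha, the flavoprotein that oxidises succinate, over 35.19 to 43.62. Sdhb, the iron-sulfur subunit, ranged over 14.85 to 24.02 FPKM and Sdhc, the other anchor, over 10.35 to 17.3. Sdhd and Sdha, neighbours in this order, overlapped in range, and so did Sdhb and Sdhc.

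In complex III, the cytochrome bc1 complex, Uqcrb and Uqcr10, small accessory subunits, had the highest means, at 40.2 FPKM (27.5 to 63.85) and 37.8 FPKM (24.81 to 55.03). Among the complex IV genes Cox8a and Cox6b1, small nuclear subunits of cytochrome c oxidase, led with ranges of 108.84 to 198.57 and 93.7 to 174.95 FPKM. In complex V the leaders were Atp5b, the catalytic beta subunit, at 85.3 FPKM (63.44 to 124.18) and Atp5h, a subunit of the peripheral stalk, at 37.2 FPKM (29.07 to 50.53). The leading pairs of complexes III and IV each overlapped in range, while every Atp5b value lay above every Atp5h value.

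Several subunits of complex IV exist as a general form and a form of muscle, lung, testis or another tissue, and the macrophages held the general forms. Cox4i1 had a mean of 81.1 FPKM and Cox4i2, known from lung and from oxygen-responsive expression, one of 0.244 with 0 to 6 counts in a library. Cox6a1 stood at 35.6 FPKM against 1.10 for the heart and muscle form Cox6a2, and Cox6b1 at 129 FPKM against 0.206 for the testis form Cox6b2 (0 to 10 counts). Cox7a2 had 23.3 FPKM and the related supercomplex factor Cox7a2l 63.3, while the heart and muscle form Cox7a1 had 1.79. Cox7b had 30.8 FPKM and Ndufa4 23.7, Cox7b2, Cox8b and Cox8c were listed at 0 in every library, and Ndufa4l2 had 1 count in 1 library. Under each of these pairs the general form was higher in all 12 libraries. A count of 0 allows up to 3 counts per library, a limit that covers counting error only.

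The c subunit, which forms the rotating ring of ATP synthase, is encoded by 3 genes with the same mature protein. Atp5g3 had a mean of 9.63 FPKM, Atp5g1 one of 3.63 and Atp5g2 one of 1.20. In the lowest libraries Atp5g3 stood at 6.38 FPKM and in the highest Atp5g1 stood at 6.10, so these neighbours did not overlap in FPKM. Neither did Atp5g1 (2.37 or more) and Atp5g2 (2.10 or less). The gap between Atp5g3 and Atp5g1 depends on the summed exon sizes, 2181 and 4912 bases. Before division by size they overlapped, at 14.46 to 32.69 and 12.12 to 27.57 CPM. Of Atp5g1, 8.7% of the longest transcript is near-identical to Gm10039, which had a mean of 165.5 counts against 185.8 for Atp5g1 itself.

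Of the 102 genes 90 passed the filter on low counts and 12 did not, of which 4 were at 0 in every library. The 12 were Ndufa11b, Ndufs6b, Ndufb4c, Ndufs3, Cox4i2, Cox6b2, Cox6c2, Ndufa4l2, Cox8b, Cox8c, Cox7b2 and a second entry of Atp5o. Statements on tested genes below cover the 90 and not these 12.

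Some core subunits had far fewer counts than their partners. Ndufs3, a core subunit of complex I, had 0, 1 and 3 counts in MΦs and 0, 1 and 0 in MM-MΦs of wt mice, and 0, 0 and 4 and then 0, 0 and 1 in those of BMI1-KO mice. Its longest transcript is near-identical over 75.7% to Gm12251, which had a mean of 12.6 counts. Uqcrc1, a core protein of complex III, had 4 to 13 counts in 11 libraries and 97 in the remaining one, replicate 3 of BMI1-KO MM-MΦs. Its partner Uqcrc2 had 471 to 820. Atp5a1, the alpha subunit that alternates with Atp5b in the head of the synthase, had 21 to 120 counts, where Atp5b had 2614 to 5672. Neither Uqcrc1 nor Atp5a1 had a near-identical stretch of at least 100 bases and 98% identity in another annotated transcript.

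Such stretches were found for 20 of the 102 genes, and in 4 of them the other gene had more counts. For Ndufa12, an accessory subunit of complex I, 29.1% of the longest transcript matched Gm15920, with means of 46.0 counts for Ndufa12 and 389.9 for Gm15920. For the 20 genes the split of reads between copies is uncertain. Over 10% of the exon bases of 15 genes lie in another annotated gene, and the sources used here do not say whether counting used strand. How far these low counts reflect the RNA in the cells was not tested.

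Genotype was compared first in macrophages grown with myeloma cells. None of the 90 genes passed an edgeR adjusted p of 0.05 between genotypes (0 of 90, where 9 of all 14197 genes or 0.0634% did). DESeq2 and limma-voom also called 0 of the 90, and 89 and 9 of all 14197 genes. The member with the smallest p was Cox5a (chromosome 9, 57521274 to 57532426, plus strand, GRCm38), which encodes a matrix-facing subunit of cytochrome c oxidase. An unadjusted p under 0.05 was found for 2 of the 90, against 5.02% of all genes. The median log2 fold change over the 90 was −0.03 (37 above 0, 53 below), and over all genes −0.01 (52.5% below 0). The median over the 90 was −0.09 without the 4 libraries numbered 3, but 0.09 without wt MM-MΦ replicate 3 alone and 0.04 without BMI1-KO MM-MΦ replicate 1.

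Counts of Cox5a were 211, 205 and 328 with wt and 140, 152 and 230 with BMI1-KO cells. Scaled for library size these were 21.07, 21.21 and 28.77 CPM against 14.88, 15.24 and 20.57 CPM, so the groups did not overlap but the highest BMI1-KO library came close to the lowest wt library. The log2 fold change was −0.49 (SE 0.19, 95% interval −0.91 to −0.06, edgeR adjusted p = 0.888), with −0.48 without the libraries numbered 3 and a range of −0.65 to −0.31 over 15 alternatives. In macrophages without myeloma cells Cox5a stood at 15.31, 17.63 and 20.96 CPM in BMI1-KO and 21.34, 22.06 and 22.79 CPM in wt (log2 fold change −0.30, SE 0.19, edgeR adjusted p = 0.972). All 6 BMI1-KO libraries thus lay below all 6 wt libraries, narrowly, at 20.96 CPM or less against 21.07 CPM or more. MΦs and MM-MΦs of one number were taken as a pair, so the 6 libraries of a genotype cannot be taken as independent. Of the 90 genes Cox5a alone had 6 libraries of each genotype without overlap, and over all genes 1.72% did. Of its exon bases 12.8% lie in Gm26631 on the opposite strand.

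Uqcrc1 had the next p, with 9, 13 and 8 counts in wt MM-MΦs and 11, 7 and 97 in BMI1-KO MM-MΦs. The change of 1.84 log2 units (SE 0.79, edgeR adjusted p = 0.974) rested on the library with 97 counts and was −0.06 without it. Ndufab1, the mitochondrial acyl carrier protein that is also a subunit of complex I, had 138, 136 and 154 counts against 76, 117 and 117 (log2 fold change −0.45, SE 0.23, edgeR adjusted p = 0.999). Its scaled values did not overlap between the genotypes. Ndufa5, an accessory subunit, had 26, 37 and 77 counts in wt and 57, 50 and 78 in BMI1-KO (log2 fold change 0.45, SE 0.33, edgeR adjusted p = 0.999), with the highest library of each group numbered 3. In 5 of the 90 genes, 1 higher and 4 lower, the BMI1-KO and wt libraries did not overlap, against 8.85% of all genes.

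By complex the median log2 fold changes in this comparison were −0.06 in complex I (17 of 43 genes above 0), −0.05 in complex II (2 of 8), 0.01 in complex III (4 of 8), 0.01 in complex IV (7 of 14) and −0.08 in complex V (7 of 17). The precision was such that the 95% interval lay within 1 log2 unit of 0 for 69 of the 90 genes, which sets a change of more than 2-fold outside their intervals. For the others the interval reached beyond 2-fold. The median SE was 0.28 in the 90 genes and 0.28 in all genes.

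**Figure D2:**
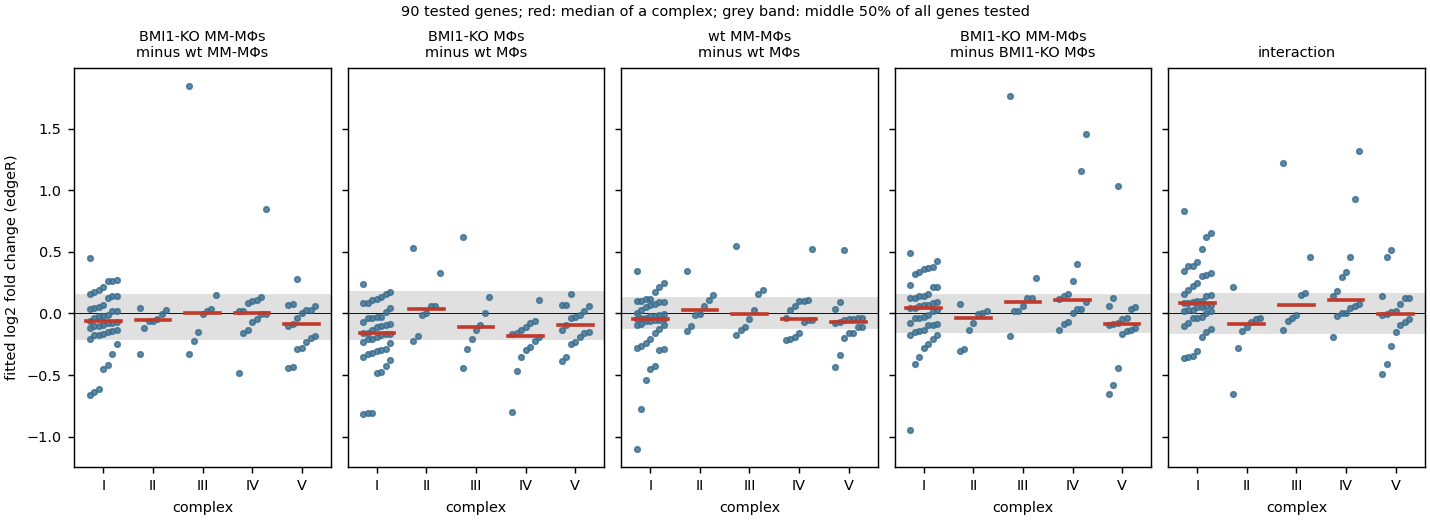
Fitted log2 fold changes of the 90 tested genes (y axis) by complex (x axis) in the 5 comparisons, with red lines for the median of a complex and a grey band for the middle 50% of all 14197 genes tested. Medians lie between −0.18 and 0.11, and Uqcrc1 is the highest point where BMI1-KO MM-MΦs are set against wt MM-MΦs (1.84) or BMI1-KO MΦs (1.77).

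In macrophages without myeloma cells more members lay below 0 in BMI1-KO than in wt. This was so for 67 of 90 genes, with a median log2 fold change of −0.14. Over all genes the median was −0.01 and 51.7% lay below 0. No member passed the test (0 of 90 by edgeR, DESeq2 and limma-voom). Of all genes 7 passed by edgeR (0.0493%). The median over the 90 depended on single libraries. It was 0.05 without wt MΦ replicate 3 and −0.03 without BMI1-KO MΦ replicate 1, and 0.02 without the 4 libraries numbered 3. Proliferation genes lay lower in the same comparison, all 17 below 0 with a median of −1.19, and their part in the result was not tested. An unadjusted p under 0.05 was found for 2 of 90, against 5.77% of all genes. In 7 genes, 2 higher and 5 lower, the groups did not overlap, against 10.0% of all genes.

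Ndufa1, a small membrane subunit of complex I encoded on the X chromosome (37187588 to 37191163, minus strand, GRCm38), had the smallest p. Its counts were 90, 83 and 134 with wt and 40, 68 and 65 with BMI1-KO cells, and 9.15, 8.48 and 11.44 CPM against 4.17, 6.48 and 5.90 CPM. Every BMI1-KO value lay below every wt value. The log2 fold change was −0.81 (SE 0.30, 95% interval −1.47 to −0.15, edgeR adjusted p = 0.735), with −0.72 without the libraries numbered 3 and a range of −0.94 to −0.65 over 15 alternatives. In MM-MΦs the same gene showed 6.49, 4.97 and 9.74 CPM in wt and 6.59, 5.61 and 9.30 CPM in BMI1-KO, which overlap throughout (log2 fold change 0.02, SE 0.30).

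Atp5d, the delta subunit in the central stalk of the synthase, had 587, 462 and 799 counts in wt MΦs and 441, 469 and 479 in BMI1-KO MΦs (a log2 change of −0.38, SE 0.17, edgeR adjusted p = 0.854). Its BMI1-KO libraries held to a narrow range of 43.5 to 45.9 CPM while the wt libraries spread over 47.2 to 68.2 CPM. Cox8a had 848, 761 and 1325 counts against 651, 752 and 853 (log2 fold change −0.35, SE 0.21, edgeR adjusted p = 0.957), and without overlap once scaled. Sdhaf3, an assembly factor of succinate dehydrogenase, went the other way with 33, 21 and 27 counts against 33, 45 and 39 (log2 fold change 0.53, SE 0.31, edgeR adjusted p = 0.957), and its scaled values did not overlap either.

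By complex, 33 of 43 genes of complex I lay below 0 (median −0.16), 3 of 8 of complex II (median 0.03), 6 of 8 of complex III (−0.11), 13 of 14 of complex IV (−0.18) and 12 of 17 of complex V (−0.10). Of all genes 51.7% lay below 0. The 95% interval lay within 1 log2 unit of 0 for 66 of the 90.

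The plot of values in each library shows the genes with the smallest p. Of its 8 panels Cox5a, Ndufa1, Atp5d, Cox8a and Uqcrc1 have genotype groups that separate in at least 1 culture, Cox8a narrowly and Uqcrc1 at few counts. Uqcrc1 and Atp5a1 have single libraries far from the rest.

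**Figure D3:**
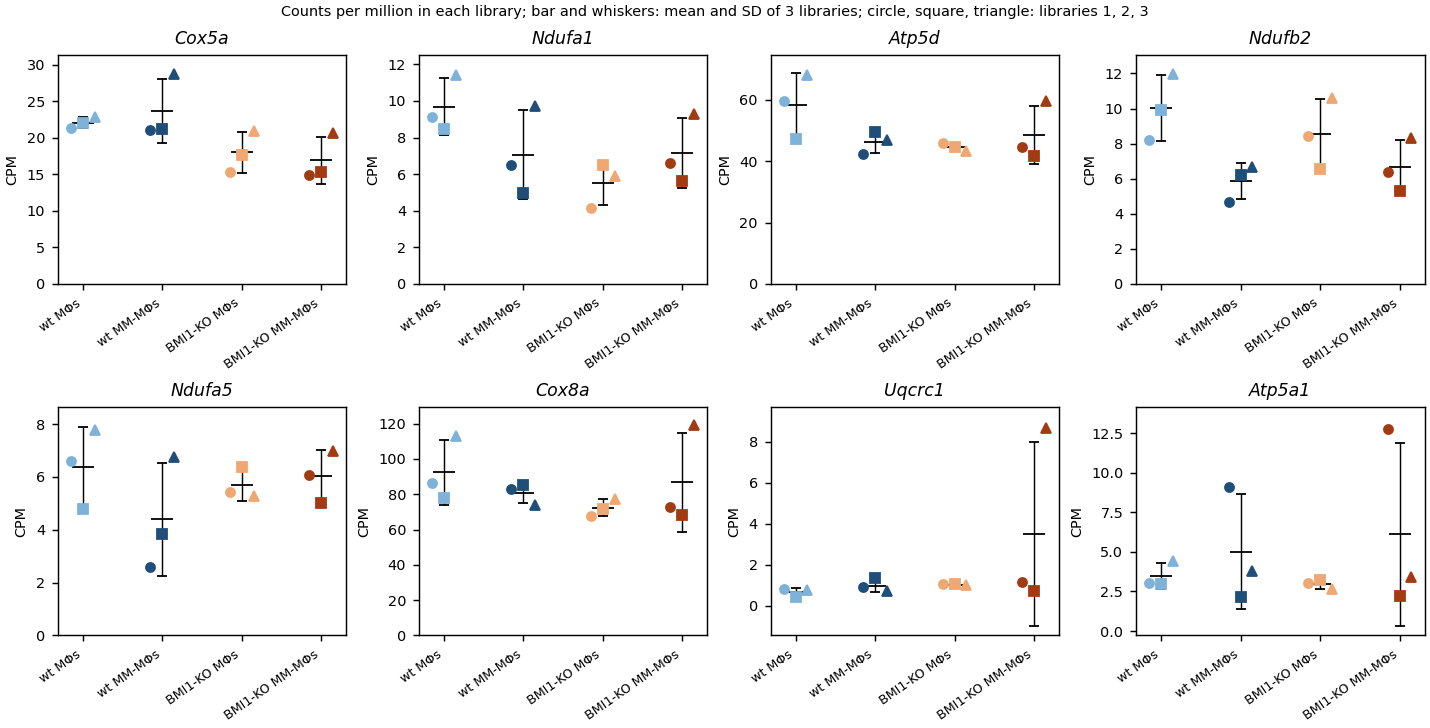
CPM of 8 genes (y axes) in the 4 groups (x axes), with circles, squares and triangles for libraries 1, 2 and 3 and black bars at each group's mean ± SD (n = 3). Cox5a spans 14.88 to 20.96 CPM with BMI1-KO and 21.07 to 28.77 CPM with wt cells, and Uqcrc1 stands out in BMI1-KO MM-MΦ replicate 3 alone.

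Co-culture with myeloma cells was compared within each genotype. In wt cells no member passed between MM-MΦs and MΦs (0 of 90 by edgeR, DESeq2, limma-voom and the replicate block). Of all genes 13 passed by edgeR (0.0916%), 58 by DESeq2, 2 by limma-voom and 156 with the block. Over the 90 the median log2 fold change was −0.04 (32 above 0, 58 below), and 14 of 17 genes of complex V lay below 0 (median −0.07). Among all genes tested, 49.3% lay below 0. Ndufb2, an accessory subunit of complex I (chromosome 6, 39592574 to 39603382, plus strand, GRCm38), had the smallest p. It had 81, 97 and 140 counts in wt MΦs and 47, 60 and 76 in wt MM-MΦs, which is 8.23, 9.90 and 11.95 CPM against 4.69, 6.21 and 6.67 CPM. The groups did not overlap, and the log2 fold change was −0.78 (SE 0.26, 95% interval −1.35 to −0.20, edgeR adjusted p = 1), or −0.74 without the libraries numbered 3. In BMI1-KO cells Ndufb2 stood at 8.44, 6.58 and 10.62 CPM in MΦs and 6.38, 5.31 and 8.32 CPM in MM-MΦs, which overlap (log2 fold change −0.36, SE 0.26, edgeR adjusted p = 1). Between libraries of the same number it was lower in MM-MΦs in all 3 pairs of either genotype.

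Next by p in wt cells were Atp5d at −0.34 (SE 0.17), Ndufa5 at −0.54 (SE 0.33) and Ndufa1 at −0.45 (SE 0.30), with edgeR adjusted p-values of 1. An unadjusted p under 0.05 was found for 1 of 90 genes, against 1.99% of all genes, and groups without overlap for 2, both lower in MM-MΦs, against 5.66%. The comparison shares the wt MΦ libraries with that of genotype in MΦs, where Ndufa1 and Atp5d also lay below 0. The median was 0.13 without wt MΦ replicate 3, and 0.02 when either replicate 1 or replicate 2 of wt MM-MΦs was left out. Without the libraries numbered 3 it was −0.03. The 95% interval lay within 1 log2 unit of 0 for 68 of the 90.

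In BMI1-KO cells no member passed between MM-MΦs and MΦs either (0 of 90 by edgeR, DESeq2, limma-voom and the replicate block). Of all genes 27 passed by edgeR (0.190%), 91 by DESeq2, 25 by limma-voom and 308 with the block. Over the 90 the median log2 fold change was 0.02 (50 above 0, 40 below), with 7 of 8 genes of complex III and 11 of 14 of complex IV above 0 (medians 0.09 and 0.11). Among all genes tested, 51.3% lay below 0. The median over the 90 was −0.17 without BMI1-KO MM-MΦ replicate 3, −0.06 without BMI1-KO MΦ replicate 1 and −0.11 without the 4 libraries numbered 3. Uqcrc1 had the smallest p, with 10, 11 and 11 counts in MΦs and 11, 7 and 97 in MM-MΦs (a log2 change of 1.77, SE 0.79, edgeR adjusted p = 1). Without the library of 97 counts it was −0.13. Ndufaf7, a methyltransferase that helps to assemble complex I, had 66, 68 and 82 counts against 39, 54 and 68 (log2 fold change −0.41, SE 0.23, edgeR adjusted p = 1). Atp5k, the e subunit that joins synthase dimers, had 13, 19 and 15 counts against 10, 10 and 9 (log2 fold change −0.65, SE 0.38, edgeR adjusted p = 1), which is few for a comparison.

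Counts of Atp5a1 were 29, 34 and 29 in BMI1-KO MΦs and 120, 22 and 38 with co-culture (log2 fold change 1.04, SE 0.64, edgeR adjusted p = 1). Without the library of 120 counts the value was −0.08. In wt it had 30, 29 and 52 counts in MΦs and 91, 21 and 43 in MM-MΦs, so the libraries of MM-MΦs numbered 1 were the highest in both genotypes. An unadjusted p under 0.05 was found for 1 of 90, against 2.94% of all genes, and groups without overlap for 7, 3 higher and 4 lower, against 7.08%. The 95% interval lay within 1 log2 unit of 0 for 66 of the 90.

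Whether co-culture acted differently in the 2 genotypes was tested as an interaction, the log2 fold change of MM-MΦs over MΦs in BMI1-KO minus that in wt. No member passed (0 of 90 by edgeR, DESeq2, limma-voom and the replicate block). Of all genes 0 passed by edgeR (0%), DESeq2 or limma-voom, and 1 with the block. By complex the medians ran from −0.09 in complex II (7 of 8 below 0) to 0.11 in complex IV (12 of 14 above 0), where 50.8% of all genes lay below 0. At an unadjusted p under 0.05 there were 0 of 90 members, against 0.909% of all genes. With the replicate block there were 4 of 90. The share of all genes under the block was not counted, so these 4 cannot be read as an excess. The smallest p-values were those of Ndufa1 (0.83, SE 0.43), Atp5d (0.46, SE 0.24), Cox8a (0.46, SE 0.29) and Sdhaf3 (−0.65, SE 0.43), and edgeR adjusted p-values were 1. All 4 were also named in the comparison of genotype in MΦs, whose libraries enter the interaction. Without the libraries numbered 3 the value of Cox8a was −0.02 and the median over the 90 was −0.11, against 0.05 with them. It was −0.02 without BMI1-KO MΦ replicate 1. The SE of an interaction is larger, with a median of 0.40, and the 95% interval lay within 1 log2 unit of 0 for 45 of the 90.

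Factors such as NRF1, those of the ETS family and YY1 are known regulators of many respiratory chain genes, so the promoters were searched for short forms of their motifs. Promoters of 300 bases, from 250 before to 50 after a start, were taken from RefSeq (GRCm38.p6) and matched by symbol for 79 of the 101 distinct symbols. On either strand, GCATGCGC (NRF1) was present for 12 of the 79 symbols (15.2%), against 3.05% of all 27025 symbols in that collection. AAGATGGCG (YY1) was present for 8 (10.1%) against 1.64%, and CCGGAAGT (ETS) for 5 (6.33%) against 4.31%. At least 1 of the 3 was found for 24 (30.4%) against 8.47%. None of the words is contained in another, and all symbols include genes not expressed in macrophages. A match describes letters and shows no binding. The promoters that follow show matches in capitals. They are those of Cox5a and Ndufa1, which had the smallest p between genotypes, of Uqcrc1, the low core subunit, where 1 stretch reads as the NRF1 word on both strands, and of Cox7b and Uqcrh, which differed in how they vary across libraries, as described further on.
Cox5a promoter, GRCm38.p6 chr9:57520982-57521281, plus strand:
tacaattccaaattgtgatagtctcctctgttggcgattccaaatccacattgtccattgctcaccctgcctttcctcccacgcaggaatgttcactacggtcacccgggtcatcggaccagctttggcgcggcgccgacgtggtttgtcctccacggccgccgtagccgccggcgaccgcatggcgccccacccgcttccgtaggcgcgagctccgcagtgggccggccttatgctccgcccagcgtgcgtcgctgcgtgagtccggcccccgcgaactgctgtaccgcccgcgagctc
Ndufa1 promoter, GRCm38.p6 chrX:37191189-37191488, minus strand:
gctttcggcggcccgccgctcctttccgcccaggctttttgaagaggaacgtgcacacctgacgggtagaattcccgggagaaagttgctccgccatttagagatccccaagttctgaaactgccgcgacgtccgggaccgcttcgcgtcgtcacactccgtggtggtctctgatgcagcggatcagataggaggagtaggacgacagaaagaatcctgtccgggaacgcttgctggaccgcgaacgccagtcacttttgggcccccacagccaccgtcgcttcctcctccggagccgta
Uqcrc1 promoter, GRCm38.p6 chr9:108936398-108936697, plus strand:
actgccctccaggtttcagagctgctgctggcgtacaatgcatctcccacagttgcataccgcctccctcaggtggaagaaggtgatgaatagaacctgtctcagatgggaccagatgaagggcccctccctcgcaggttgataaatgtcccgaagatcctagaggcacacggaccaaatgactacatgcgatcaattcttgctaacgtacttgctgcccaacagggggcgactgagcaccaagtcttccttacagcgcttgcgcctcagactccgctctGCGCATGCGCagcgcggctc
Cox7b promoter, GRCm38.p6 chrX:106015450-106015749, plus strand:
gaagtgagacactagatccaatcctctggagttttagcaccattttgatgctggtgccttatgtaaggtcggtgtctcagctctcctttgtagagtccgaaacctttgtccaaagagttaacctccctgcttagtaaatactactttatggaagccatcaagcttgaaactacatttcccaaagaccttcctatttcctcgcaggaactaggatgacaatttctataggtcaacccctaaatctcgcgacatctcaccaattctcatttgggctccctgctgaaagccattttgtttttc
Uqcrh promoter, GRCm38.p6 chr4:116075021-116075320, minus strand:
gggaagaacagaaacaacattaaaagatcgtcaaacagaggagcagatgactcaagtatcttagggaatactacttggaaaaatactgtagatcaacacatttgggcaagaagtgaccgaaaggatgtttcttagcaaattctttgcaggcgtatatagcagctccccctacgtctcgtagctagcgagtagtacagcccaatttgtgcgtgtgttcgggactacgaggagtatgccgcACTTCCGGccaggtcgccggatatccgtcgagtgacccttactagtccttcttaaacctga

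Cox5a, Ndufa1 and Cox7b held none of the 3 words and Uqcrh held the ETS word 1 time. Uqcrc1 held the NRF1 word. Its level was 0.374 FPKM, from few counts, and that of Uqcrh was 17.8 FPKM. Whether the words go with the level of a gene was not tested.

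The summed level of each complex differed little across groups. Over structural subunits and isoforms, complex I summed to 690 ± 121 CPM (SD, n = 3) in MΦs and 676 ± 107 CPM in MM-MΦs of wt mice, and to 636 ± 49.7 and 653 ± 122 CPM in those of BMI1-KO mice. Complex III summed to 208 ± 51.0, 202 ± 25.7, 191 ± 29.0 and 201 ± 36.3 CPM in the same order. Complex IV summed to 616 ± 88.4, 598 ± 47.1, 563 ± 56.6 and 592 ± 129 CPM, and complex V to 826 ± 191, 781 ± 144, 766 ± 127 and 769 ± 181 CPM. In these 4 complexes the group means differed by less than the largest SD.

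Complex II had the narrowest range relative to its level. Its 4 subunits summed to 299.95, 323.8 and 309.7 CPM in MΦs and 293, 310.5 and 305 CPM in MM-MΦs of wt mice, and to 318, 292 and 305 CPM and then 292, 303 and 289 CPM in those of BMI1-KO mice. The lowest and highest of the 12 libraries were thus 289 and 324 CPM, whereas complex V ran from 627 to 1047 CPM. The group means of complex II were 311 ± 12, 303 ± 8.90, 305 ± 12.8 and 295 ± 7.21 CPM, of which the highest and lowest lay further apart than the largest SD, and their ranges overlapped.

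**Figure D4:**
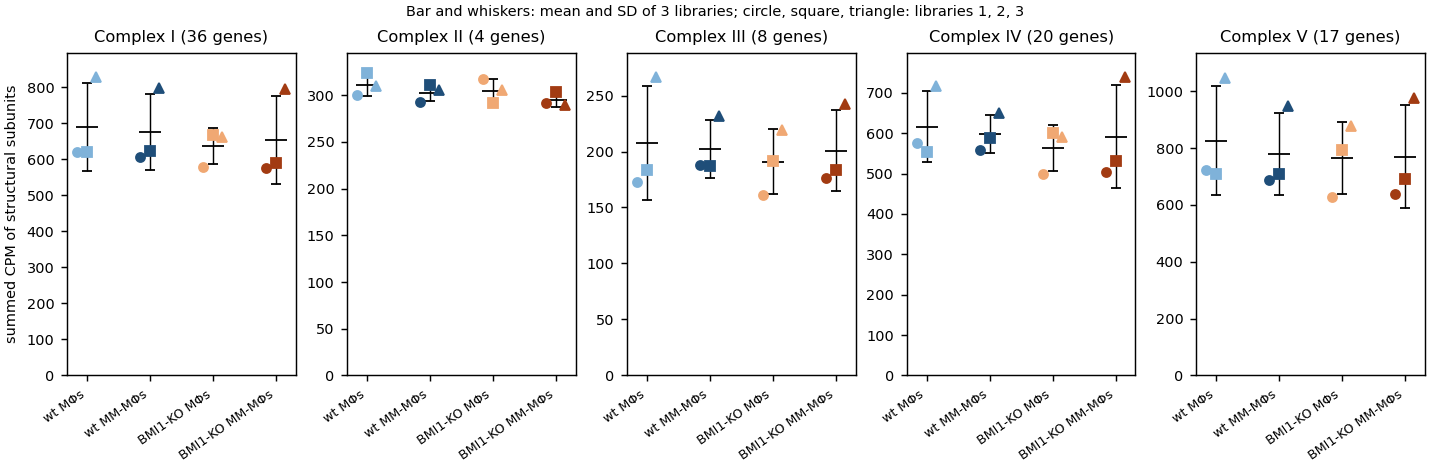
Summed CPM of the structural subunits of each complex (y axes, from 0) in the 4 groups (x axes), with circles, squares and triangles for libraries 1, 2 and 3 and black bars at each group's mean ± SD. Libraries numbered 3 (triangles) lie highest in at least 3 of the 4 groups for complexes I, III, IV and V, while complex II stays within 289 to 324 CPM.

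Most members were higher in the libraries numbered 3. Within each group the library numbered 3 was set against the mean of the other 2, and the 4 differences were averaged. The median over the 90 genes was 0.39 on the log2 scale and 81 of 90 lay above 0, while over all genes the median was 0.00 and 7078 of 14197 lay above 0. In 28 of the 90 (31.1%) the library numbered 3 was the highest in all 4 groups, against 13.8% of all genes. By group the median over members was 0.39 in MΦs and 0.41 in MM-MΦs of wt mice, and 0.17 and 0.50 in those of BMI1-KO mice. In BMI1-KO MΦs the library numbered 1 was the low one. Averaged over members, its difference from the mean of the 12 libraries was −0.23, and numbers 2 and 3 stood alike at 0.04. By complex the difference of number 3 was 0.39 in complex I, 0.10 in complex II, 0.52 in complex III, 0.44 in complex IV and 0.45 in complex V.

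Cox7a1, the heart and muscle isoform, led with a mean difference of 1.22, though its counts were only 0 to 30. Cox7b, an accessory subunit of complex IV, followed at 0.87, with 280, 293 and 723 counts in MΦs and 311, 315 and 580 in MM-MΦs of wt mice, and 162, 425 and 550 and then 254, 273 and 537 counts in those of BMI1-KO mice. Its library numbered 3 was the highest in every group. Atp5mpl, a small subunit of the synthase, stood at 0.83, Uqcrq of complex III at 0.81, the assembly factor Ndufaf5 at 0.80 and Atp5o, the subunit that confers oligomycin sensitivity, at 0.71.

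A few genes did not share this. Uqcrh, the hinge protein of complex III, lay lower in the library numbered 3 in each of the 4 groups, with differences of −0.12, −0.33, −0.28 and −0.19 on the log2 scale. Its 12 counts ran from 204 to 257, a narrow range beside the 162 to 723 of Cox7b. Atp5k and Cox7a2l were also below 0 in all 4 groups, with means of −0.21 and −0.16, and Ndufa6 in 3 of 4 with a mean of −0.31. The complex II genes Sdha and Sdhd had mean differences of −0.09 and 0.03. These genes were chosen after their values were seen.

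**Figure D5:**
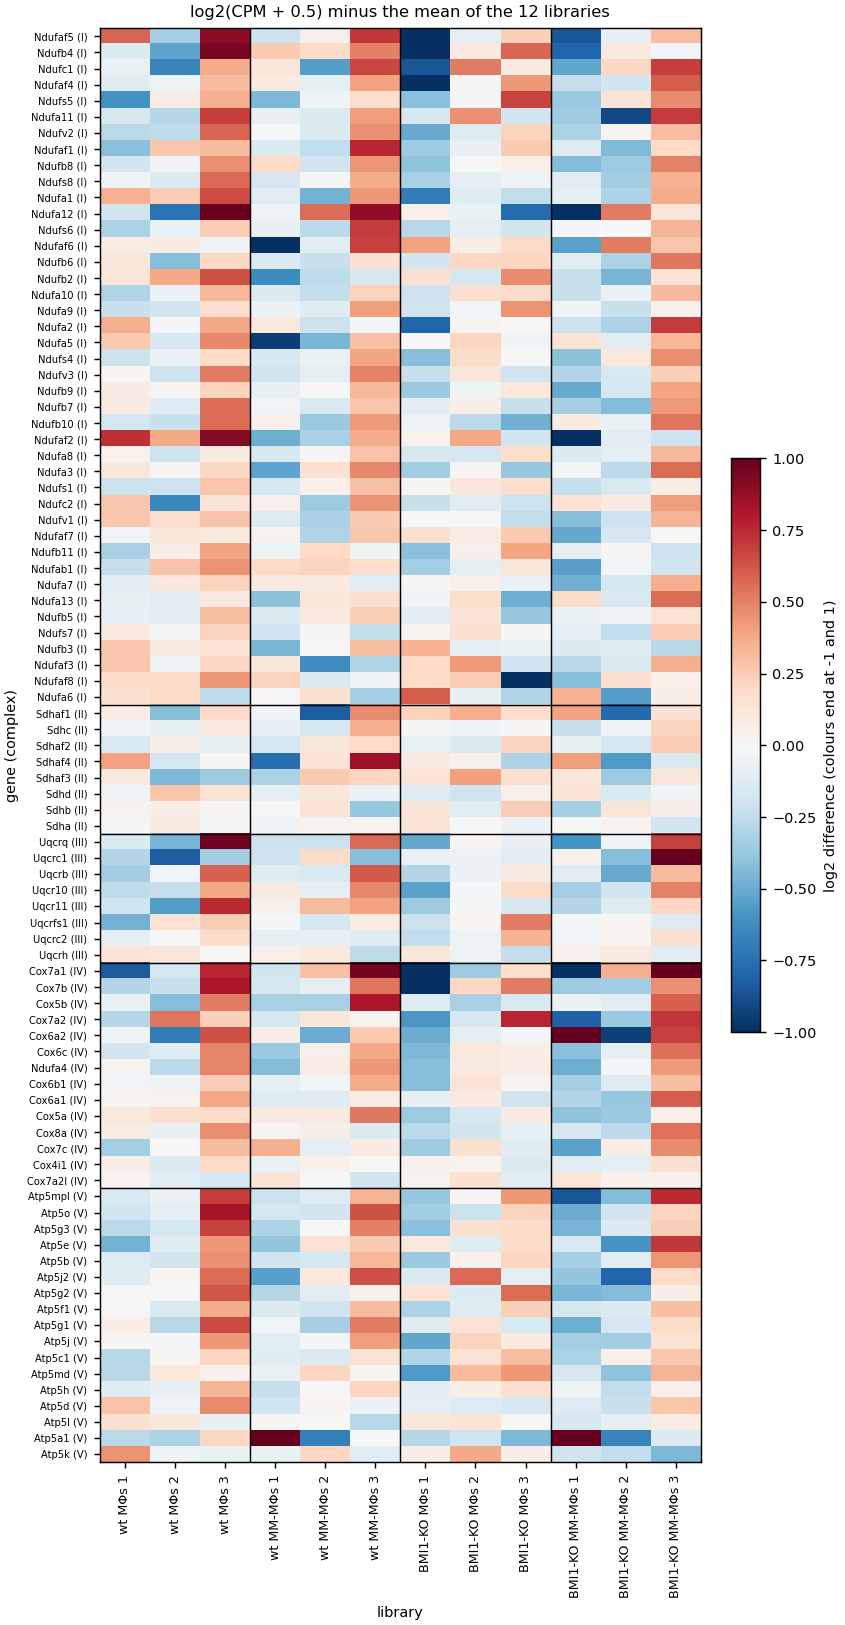
Log2(CPM + 0.5) of the tested genes named on the y axis (rows, by complex and by the difference of libraries numbered 3) minus the mean of the 12 libraries (columns), with red above and blue below that mean. Columns numbered 3 are mostly red outside complex II in wt cells and BMI1-KO MM-MΦs but not in BMI1-KO MΦs. Their mean over all 90 genes is 0.35 and 0.27 in MΦs and MM-MΦs of wt mice and 0.04 and 0.30 in those of BMI1-KO mice.

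Other gene lists differed in the same libraries to unequal degrees. The median difference of the library numbered 3 was 0.35 over 75 genes of the mitochondrial ribosome, 0.29 over 19 genes of the tricarboxylic acid cycle, 0.36 over 21 genes of glycolysis, 0.24 over 92 genes with symbols in Rpl or Rps and 2.14 over 17 proliferation genes. It was lower over electron carriers (0.23), assembly factors outside the symbol rule (0.15) and biogenesis factors (0.12). Over 10 tested genes of the mitochondrial genome it was 0.35. The library numbered 3 was highest in all 4 groups for 31.1% of members and 60.0% of these mitochondrial genes. The share was 94.1% for proliferation, 47.6% for glycolysis, 42.1% for the tricarboxylic acid cycle and 29.3% for the mitochondrial ribosome. It was 23.5% for these assembly factors, 20.7% for Rpl or Rps genes, and 15.8% for electron carriers and for biogenesis factors. Mki67, which encodes Ki67, had 1848, 2974 and 13118 counts in MΦs and 2494, 2793 and 13180 in MM-MΦs of wt mice, and 835, 2702 and 3333 and then 1277, 2743 and 3878 counts in those of BMI1-KO mice. The part of proliferating cells in the levels of the respiratory chain genes was not tested. Across the 90 members the difference had a Spearman correlation of −0.10 with exon size, −0.15 with the longest transcript and −0.07 with mean FPKM, over genes that share the same libraries.

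The mitochondrial genome itself encodes 13 subunits of complexes I, III, IV and V, which the symbol rule does not take. All 13 were in the table and 10 passed the filter. None was called by edgeR in any of the 5 comparisons, where at most 0.190% of all genes were. Together they took 8512 to 13065 CPM in a library, with means of 10553 ± 1495 in MΦs and 10792 ± 2277 in MM-MΦs of wt mice, and 10088 ± 1131 and 10528 ± 1814 in those of BMI1-KO mice. Most of it was mt-Co1, the catalytic subunit of cytochrome c oxidase, with 67860 to 120403 counts. Its partners mt-Co2 and mt-Co3 had 6 to 20 and 11 to 39 counts, mt-Atp6 had 3 to 18, and mt-Nd3, mt-Atp8 and mt-Nd4l had at most 7. By FPKM mt-Co1 stood at 5562 and mt-Co2 at 1.77. Subunits transcribed from the same mitochondrial strand thus differed widely in these counts, and what part counting had in it was not tested.

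The mitochondrial gene with the smallest p by genotype was mt-Nd6, a complex I subunit and the only one of the 13 encoded on the light strand. It had 1181, 1376 and 1108 counts in wt MΦs and 1754, 1771 and 2916 in BMI1-KO MΦs. These do not overlap, as was so for 10.0% of all genes (log2 fold change 0.80, SE 0.26, edgeR adjusted p = 0.633). In MM-MΦs mt-Nd6 had 889, 964 and 1320 counts in wt and 1489, 2171 and 1198 in BMI1-KO (log2 fold change 0.67, SE 0.26, edgeR adjusted p = 0.844). There BMI1-KO replicate 3 fell within the wt range. Reads from the strand opposite to it cannot be told apart without the strand setting. The other mitochondrial genes by the same rule were mt-Nd2 at 0.44 (SE 0.25) in MM-MΦs and mt-Atp6 at −1.0 (SE 0.60) in MΦs, the latter from counts of 3 to 15.

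The rest of the pathway was read from lists in the same fits. In none of them did a gene pass in any of the 5 comparisons, where at most 0.190% of all genes did. Among 19 tested genes for cytochrome c, ubiquinone synthesis and other electron entry, the smallest p was that of Etfb, a subunit of the flavoprotein that passes electrons from fatty acid oxidation to ubiquinone. Etfb had 76, 112 and 143 counts in wt MΦs and 54, 64 and 60 in BMI1-KO MΦs (a log2 change of −0.87, SE 0.21, edgeR adjusted p = 0.371). It had 81, 86 and 106 counts in wt MM-MΦs and 72, 82 and 105 in BMI1-KO MM-MΦs, and its interaction was 0.81 (SE 0.30, edgeR adjusted p = 1). In this list 9 genes lay above 0 and 10 below in MΦs, and 7 above and 12 below in MM-MΦs.

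Among 34 assembly factors outside the symbol rule, 15 lay above 0 between genotypes in MM-MΦs and 21 in MΦs. Cox18, which helps to insert the mt-Co2 protein into the membrane, was at 0.46 (SE 0.20, edgeR adjusted p = 0.982) in the first and Sco1, a copper chaperone for complex IV, at 0.45 (SE 0.20, edgeR adjusted p = 0.854) in the second. Among 19 biogenesis factors 4 and 13 lay above 0. Lonp1, a protease of the mitochondrial matrix, and Nrf1, a transcription factor for respiratory genes, were at −0.24 (SE 0.11) and −0.21 (SE 0.11) in MM-MΦs, with edgeR adjusted p-values of 0.999, and Polg, the mitochondrial DNA polymerase, was at −0.28 (SE 0.16) in MΦs.

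The mitochondrial ribosome list, 75 genes, had medians of −0.03 in MM-MΦs and −0.11 in MΦs between the genotypes (30 and 19 genes above 0). Mrps15, a protein of its small subunit, was at −0.68 (SE 0.25, edgeR adjusted p = 0.728) in MΦs. The tricarboxylic acid cycle list, 19 genes, had medians of −0.04 in both, with Aco1, the cytosolic aconitase, at −0.31 (SE 0.15) in MΦs. The glycolysis list, 21 genes, had medians of 0.01 and −0.02, with the hexokinase gene Hk1 at 0.50 (SE 0.25) in MM-MΦs. The list of 92 genes with symbols in Rpl or Rps, mostly proteins of the cytosolic ribosome but also kinases such as Rps6ka1, had medians of 0.01 and 0.02, with Rpl38 at −0.97 (SE 0.33, edgeR adjusted p = 0.716) in MM-MΦs.

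All 17 proliferation genes lay below 0 in BMI1-KO in both cultures, with medians of −0.95 in MM-MΦs and −1.19 in MΦs, and none passed. Mki67 was at −1.16 (SE 0.76, edgeR adjusted p = 0.999) and −1.32 (SE 0.76, edgeR adjusted p = 0.957). For co-culture the list medians lay between −0.10 and 0.07 in wt, and between −0.14 and 0.18 in BMI1-KO. Gapdh, a glycolytic enzyme, was at −0.62 (SE 0.29, edgeR adjusted p = 1) in wt. It had only 146, 80 and 110 counts in wt MΦs and 74, 74 and 69 in wt MM-MΦs. How far these counts reflect the RNA in the cells was not tested.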

How the data were processed

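RNA of sorted macrophages was measured in 12 RNA-seq libraries, in 4 groups of 3 taken from the labels, with 0 columns of other samples. Deposited by the authors were raw read counts per gene and, for each library, FPKM values. The submitters' processing notes name bcl2fastq 2.17.1.14, cutadapt 1.9.1, HISAT2 2.0.1, HTSeq 0.6.1, DESeq2 and the mouse genome GRCm38 (mm10). Not given in the sources used here are the annotation release and how strand was handled. By their IDs 55394 of 55573 genes matched GENCODE M21, and 55141 of these had the same summed exon size as in the deposited table.

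Counts were tested with edgeR 4.0.16 in R 4.3.3: TMM scaling, filterByExpr (minimum count 10, minimum total 15, large group size 10, minimum proportion 0.7), a quasi-likelihood test with 1 mean per group over the 12 libraries, and Benjamini-Hochberg adjustment over 14197 genes, with a threshold of 0.05. The test was tried on simulated data. FPKM values and sums of CPM were described without a test, and log2(CPM + 0.5) served for plots and for the differences of libraries numbered 3. Intervals are 95% intervals from the SE and its degrees of freedom. Near-identical stretches were sought with blastn at 98% identity and 100 bases. Alternatives were DESeq2 1.42.0, limma-voom (limma 3.58.1), RLE and upper quartile scaling, no filter or at least 1 CPM in 3 libraries, the replicate number as a block, a fit of only the 6 libraries of a comparison, leaving out each library, and, added after seeing the data, leaving out the 4 libraries numbered 3.

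The members and lists were chosen with earlier results of these data known, so counts over them are descriptions. Named are the 2 structural members with the highest mean FPKM in each complex, the 4 members with the smallest p in each comparison, the isoform families of complex IV and of Atp5g, the Sdh subunits, and genes of other lists with the smallest p there. A gene of this rule and a marker are not reported here, though counts, medians and sums include every member. Others named were chosen after their values were seen.

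Replicate numbers are shared by the groups. Each library's deviation from its group mean was correlated over genes with that of the same number in the other culture of its genotype, giving 0.548, 0.361 and 0.725 (wt) and 0.642, 0.18 and 0.598 (BMI1-KO). As every value is above 0.1, MΦs and MM-MΦs of one number were taken as a pair in the replicate block. Unless the block is named, fold changes, SEs, intervals and p-values for co-culture and the interaction come from fits without a pair term. Between genotypes the correlations ranged from −0.031 to 0.508 and no pairing was assumed there. The block over all groups is thus only an alternative for the genotype comparisons.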

Additional observations from a re-analysis of the deposited data

How the results depend on the processing

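No respiratory chain gene passed in any comparison under any alternative, so the count of 0 was the same throughout, with the replicate block included (0 in all 5 comparisons). Calls over all genes with the block were 181 and 206 between genotypes, where the samples share only a number, and 156, 308 and 1 for co-culture in wt, in BMI1-KO and the interaction. With the replicate block the medians were −0.05 and −0.14 between genotypes in MM-MΦs and MΦs, −0.04 and 0.00 between cultures in wt and BMI1-KO, and 0.02 for the interaction. Leaving out 1 library moved the medians over −0.24 to 0.09, −0.21 to 0.05, −0.16 to 0.13, −0.17 to 0.12 and −0.13 to 0.22 in that order. The medians changed sign in 4, 2, 3 and 3 of 15 alternatives and in 6 of 20 for the interaction. In the first comparison it was 0.09 without wt MM-MΦ replicate 3, and 0.04 without BMI1-KO MM-MΦ replicate 1 or 2. With upper quartile scaling it was 0.00.

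Uqcrc1 in BMI1-KO MM-MΦs turned to −0.055 against wt MM-MΦs and −0.13 against BMI1-KO MΦs without BMI1-KO MM-MΦ replicate 3, and to −0.25 and −0.16 without the 4 libraries numbered 3, chosen after seeing the data. Without replicate 2 of that group it reached 2.32 and 2.25. Atp5a1 turned to −0.076 without BMI1-KO MM-MΦ replicate 1, reached 1.44 without replicate 2, and the interaction of Cox8a turned to −0.017 without the 4 libraries numbered 3. For Uqcrc1 and Atp5a1 the single library holds most counts of its group, and why it is high was not tested. What moved Cox8a was not tested either. With assembly factors included, the summed level of complex II was 351 and 346 CPM in MΦs and MM-MΦs of wt mice and 348 and 336 CPM in those of BMI1-KO mice, higher because more genes are summed. In the other 314 values for named genes none changed sign or passed. With 3 libraries a group, the 95% intervals stayed within 2-fold for 45 to 69 of the 90 genes, depending on the comparison.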
